A study of Homo sapiens with 6 samples.

Results

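The genes described here encode 8 very large human ubiquitin ligases, HUWE1, UBR4, HERC1, HERC2, HECTD4, MYCBP2, BIRC6 and TRIP12, among 20046 protein-coding genes of GENCODE version 44. They are a named list selected on their peak counts in these same lists, and every peak whose summit fell in one of their gene bodies was taken. The series immunoprecipitated the RNA helicase DDX5 from nuclear extracts of RH30 and sequenced the RNA that came with it. RH30 is an established alveolar rhabdomyosarcoma line positive for the PAX3-FOXO1 fusion, and all samples carry that fusion. The series held 6 samples, 3 DDX5 immunoprecipitates made with the antibody ab126730 and 3 INPUT samples made with none, called biological replicates by the submitters. A single line limits the model, and nothing says whether the replicates came from separate cultures.

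One peak list per immunoprecipitate was analysed, with 23715, 23651 and 45832 peaks in replicates 1, 2 and 3. INPUT data were not analysed here, and the sequencing depth behind the peaks is unknown. The library kit does not mark strand. As a loose check of the line, PAX3, FOXO1 and the myogenic regulator genes MYOD1 and MYOG had a peak in all 3 lists. So did FGFR4, a receptor known to be high in fusion-positive tumours. Because 25.7% of all protein-coding genes had one too, such peaks cannot identify the line or the fusion. PAX3 had 0 places where peaks of all 3 lists overlapped. Because no INPUT level stands beside them, more peaks on a transcript and more of that transcript in the nucleus cannot be told apart in any count below.

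Ubiquitin ligases pass ubiquitin from a conjugating enzyme to a chosen protein, which is often then degraded by the proteasome. Ligases of the HECT class first take the ubiquitin onto a cysteine of their own, while RING-type ligases bring the conjugating enzyme and the substrate together. The giant members of these classes are scaffolds with long helical or propeller-like arms around one catalytic domain, and their messenger RNAs are correspondingly long and divided into very many exons. DDX5 is a DEAD-box helicase known for roles in splicing, microRNA processing and transcription.

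All 8 canonical transcripts were MANE Select, and 7 of the genes lie on the minus strand. Together they held 636 exons and 117.8 kb of exonic sequence, which is 7.11% of their gene bodies. Coding sequence ran from 6201 bp in TRIP12 to 15549 bp in UBR4, and gene length from 135.8 kb in UBR4 to 284.6 kb in MYCBP2. In GRCh38 coordinates, HUWE1 is on chromosome X from 53532096 to 53686752 with 84 exons, and UBR4 on chromosome 1 from 19074510 to 19210266 with 106 exons. HERC1 is on chromosome 15 from 63608618 to 63833948 with 78 exons, and HERC2 on chromosome 15 from 28111040 to 28322179 with 93 exons. HECTD4 is on chromosome 12 from 112160188 to 112382439 with 76 exons, and MYCBP2 on chromosome 13 from 77042474 to 77327094 with 83 exons. BIRC6 is on chromosome 2 from 32357023 to 32619571 with 74 exons, and TRIP12 on the same chromosome from 229763837 to 229923239 with 42 exons.

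Each of the genes but HERC2 had coding sequence with a summit of every list in its first or second region by rank. For 4 of the genes a coding stretch from such a region is shown. Each is 151 bases of the reference genome, GRCh38, centred between the 3 summits of a region found in every list, and read 5′ to 3′ along the minus strand for all but BIRC6. Capitals mark the bases from the first to the last of the 3 summits. The HUWE1 stretch lies in exon 68 (chrX:53547967-53548117) and that of UBR4 in exon 66 (chr1:19122880-19123030). The BIRC6 stretch lies in exon 25 (chr2:32464526-32464676, plus strand) and that of TRIP12 in exon 4 (chr2:229859406-229859556).
HUWE1: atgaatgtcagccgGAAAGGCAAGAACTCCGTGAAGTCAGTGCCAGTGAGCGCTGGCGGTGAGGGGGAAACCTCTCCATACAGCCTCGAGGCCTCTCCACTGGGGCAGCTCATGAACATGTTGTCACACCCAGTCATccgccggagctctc
UBR4: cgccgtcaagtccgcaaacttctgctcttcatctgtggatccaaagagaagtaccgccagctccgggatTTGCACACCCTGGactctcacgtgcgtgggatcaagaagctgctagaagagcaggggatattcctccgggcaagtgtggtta
BIRC6: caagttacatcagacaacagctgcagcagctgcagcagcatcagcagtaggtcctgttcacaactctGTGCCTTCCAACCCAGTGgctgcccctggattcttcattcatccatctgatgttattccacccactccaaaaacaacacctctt
TRIP12: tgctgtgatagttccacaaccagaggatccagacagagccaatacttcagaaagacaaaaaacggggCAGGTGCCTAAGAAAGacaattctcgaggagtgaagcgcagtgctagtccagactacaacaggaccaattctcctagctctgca

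The summits of the 3 lists fell within 13 bases of each other in UBR4, 16 in TRIP12, 18 in BIRC6 and 123 in HUWE1, counting both ends. All 151 bases of each stretch were coding. Their GC content was 58.9% in HUWE1, 54.97% in UBR4, 49.7% in BIRC6 and 48.3% in TRIP12.

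Every one of the 8 genes had a peak in every list, where 25.7% of all protein-coding genes did and 51.6% of the 223 with at least 8 kb of coding sequence. The genes were chosen with such counts in view, so this is a description. They held 215, 121 and 324 peaks in replicates 1, 2 and 3. The mean was 220.0 ± 101.6 peaks (SD, n = 3). Those were 0.907%, 0.512% and 0.707% of the peaks of each list, so replicate 2 was lowest and replicate 3 highest in number but not in share. The deposited fold enrichment, the authors' value over the peak caller's background, had a median of 2.45, 2.73 and 2.80 over these peaks, against 2.66, 3.21 and 2.91 over each whole list. With fold enrichments of at least 4, HUWE1, UBR4, HERC2 and HECTD4 still had a peak in every list, and the other 4 did not.

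With all peaks counted, HUWE1 and UBR4 stood well apart from the other 6 within each list. HUWE1, a HECT ligase known to ubiquitinate MCL1 and MYC, had 49, 48 and 71 peaks in replicates 1, 2 and 3. Of these, 38, 36 and 58 had their summit in an exon, which is 2.58, 2.44 and 3.94 exonic peaks per exonic kb. Replicate 2, the poorest list for every other member, was within 1 peak of replicate 1 in HUWE1. UBR4, which recognises destabilising N-terminal residues in the N-degron pathway, had 59, 32 and 84 peaks, and 2.96, 1.64 and 4.72 exonic peaks per kb. Together the pair supplied 50.2%, 66.1% and 47.8% of the members' peaks.

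**Figure D1:**
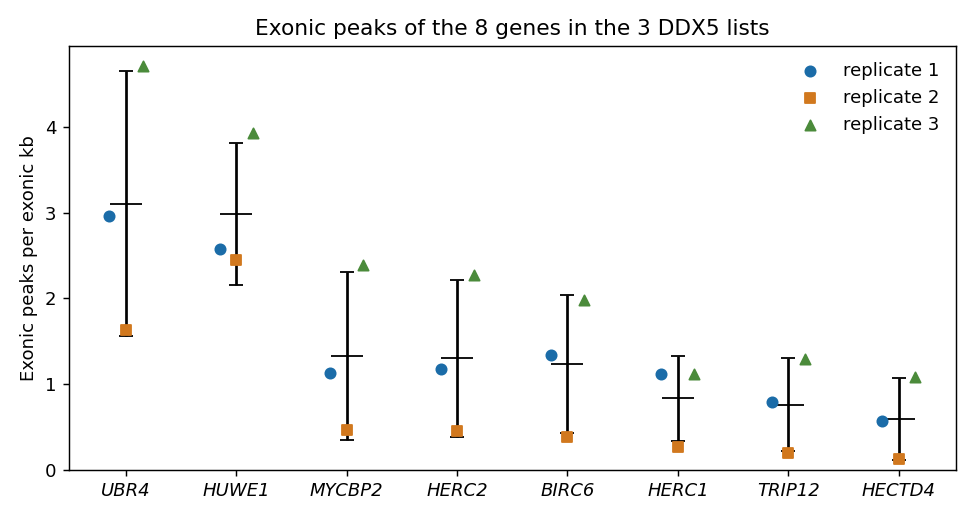
Exonic peaks per exonic kb (y axis) of the 8 genes in the 3 DDX5 lists, with the bar at the mean and whiskers of 1 SD (n = 3). All HUWE1 values, from 2.44 to 3.94, lie above all values of MYCBP2, which reached 2.39, and UBR4 spans the widest range, from 1.64 to 4.72.

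On this measure UBR4 averaged 3.10 ± 1.55 exonic peaks per kb and HUWE1 2.99 ± 0.826 (SD, n = 3). MYCBP2 followed with 1.33 ± 0.977, HERC2 with 1.302 ± 0.918 and BIRC6 with 1.23 ± 0.802 (SD, n = 3). HERC1 was at 0.834 ± 0.494, TRIP12 at 0.759 ± 0.545 and HECTD4 at 0.593 ± 0.476 (SD, n = 3). Without summits in another gene record MYCBP2 was at 0.531, below HERC1 at 0.724 and TRIP12 at 0.759. Without peaks whose fold and p-value recur together in at least 10 peaks of their list, HUWE1 was at 2.13, UBR4 at 1.07, TRIP12 at 0.627, BIRC6 at 0.552, MYCBP2 at 0.265, HERC1 at 0.241, HERC2 at 0.174 and HECTD4 at 0.106. HUWE1 and UBR4 were the highest under both settings, while the order of the other 6 changed. With fold enrichments of at least 4 the pair no longer led. HERC2 was then highest at 0.347 ± 0.271, before UBR4 at 0.273 ± 0.254, HECTD4 at 0.254 ± 0.190 and HUWE1 at 0.226 ± 0.171 (SD, n = 3). With all peaks, of neighbours in the order above, only HUWE1 and MYCBP2 had values that did not overlap across lists. Every other neighbouring pair overlapped, and 4 of those 6 pairs changed order in at least 1 list. UBR4 was first and HUWE1 second in replicates 1 and 3, and the order turned in replicate 2. Across lists UBR4 overlapped other members too. Its 1.64 in replicate 2 lay below MYCBP2 at 2.39, HERC2 at 2.28 and BIRC6 at 1.98 in replicate 3.

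The other 6 genes had fewer peaks, with the lowest count in replicate 2 in each of them. HERC2, a HECT ligase with propeller domains that acts in DNA damage signalling, had 26, 13 and 42 peaks in replicates 1, 2 and 3. MYCBP2, a RING-linked ligase known from axon development that passes ubiquitin on to threonine, had 18, 8 and 41. BIRC6, an inhibitor of apoptosis that joins conjugating-enzyme and ligase activity in one protein, had 25, 7 and 33. Replicate 3 was highest in each of HERC2, MYCBP2 and BIRC6. Peaks with such recurring values made up 71 of the 81 in HERC2 and 54 of the 67 in MYCBP2 over the 3 lists. In BIRC6 they were 37 of 65, in UBR4 122 of 175 and in HUWE1 63 of 168. In HERC1 they were 28 of 39, in HECTD4 26 of 33 and in TRIP12 8 of 32. Such peaks made up 53.7%, 61.0% and 68.0% of the whole lists of replicates 1, 2 and 3. Of the members' peaks they were 58.1%, 49.6% and 69.1%. HERC1, a HECT ligase of the same propeller type as HERC2, had 17, 5 and 17 peaks. TRIP12, a HECT ligase of the ubiquitin-fusion degradation pathway, had 11, 4 and 17. HECTD4, a HECT-domain protein whose substrates are less well known, had 10, 4 and 19. These 3 had the fewest peaks, and in replicate 2 none of them passed 5.

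Merged across lists wherever intervals shared at least 1 bp, the peaks of the 8 genes formed 373 regions. All 3 lists held 76 of them (20.4%), while 123 had support from 2 lists and 174 from 1. Of the regions seen in 1 list, 127 came from replicate 3, 30 from replicate 1 and 17 from replicate 2. HUWE1 held 33 regions found in every list and UBR4 held 26, so the pair held 59 of the 76. HERC2 and MYCBP2 held 4 each, BIRC6 3, and HERC1, HECTD4 and TRIP12 2 each. Any such region was present in 18.8% of all protein-coding genes and in 42.2% of those with at least 8 kb of coding sequence. Without replicate 2 the number of regions in the remaining lists was 175, with 57 in UBR4, 48 in HUWE1, 16 in BIRC6, 15 in HERC2, 13 in MYCBP2, 10 in HERC1, 9 in HECTD4 and 7 in TRIP12. Without replicate 1 HERC2 had 8 such regions, and without replicate 3 it had 7 and BIRC6 had 5. With fold enrichments of at least 4 in every list, 1 region was found, in HERC2, and its values recurred at peaks of other members. With 50% reciprocal overlap in place of 1 bp, BIRC6 had 0 regions in every list, and with only summits in no other gene record MYCBP2 had 1.

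**Figure D2:**
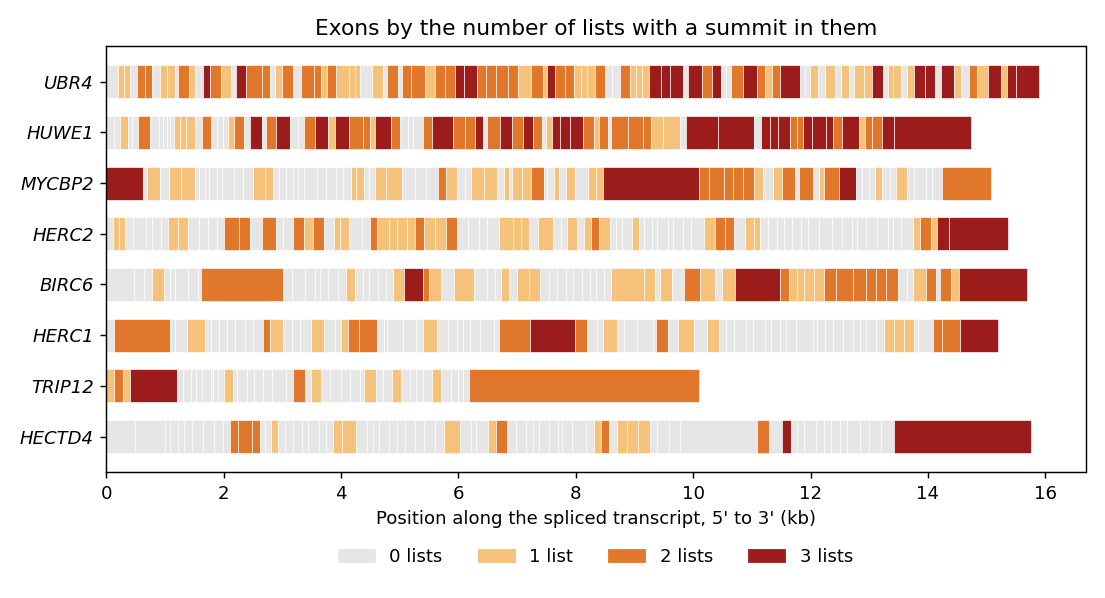
Each row is the spliced canonical transcript of a gene (x axis, kb from the 5′ end), cut into its exons, and the colour gives the number of lists with a summit in the exon. HUWE1 and UBR4 have 23 and 19 exons with a summit in all 3 lists, spread along the transcript, while each of the other genes has at most 3.

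The exons that all lists marked were many and scattered in HUWE1 and UBR4, and few and mostly long in the rest. In HUWE1, 37, 34 and 58 of 84 exons held a summit in replicates 1, 2 and 3, and 23 did in every list. None of these 23 came before exon 23, and 11 of them lay among the 18 exons from exon 67 on. In UBR4, 47, 26 and 75 of 106 exons held a summit, and 19 did in every list, from exon 14 to exon 106. The longest run of exons without a summit in any list was 2 exons in UBR4, 58 and 59, and 5 in HUWE1, 7 to 11. In HERC1 that run was 19 exons, 52 to 70, and in HERC2 17 exons, 72 to 88. Across HUWE1 and UBR4, 42 of 190 exons held a summit in every list, against 13 of 446 in the other 6 genes.

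The 3 shared regions of HUWE1 that ranked highest by mean percentile of −log10 q lay in exons 64, 65, 68 and 84. Its last exon, exon 84, carried the region with the highest mean rank (chrX:53532808-53533455), with fold enrichments of 3.47, 4.398 and 2.93 in replicates 1, 2 and 3. Only 100 of the 1316 bp of that exon are coding. The exon 68 region printed above (chrX:53547714-53548316) reached 2.41, 2.63 and 2.78, a mean of 2.61 ± 0.189 (SD, n = 3). A region over exons 64 and 65 (chrX:53550624-53551511) reached 3.31, 6.07 and 4.79, the highest mean fold of that gene at 4.72. The exon 48 region, near the middle of the transcript, followed by mean fold at 4.69, with 3.59, 3.10 and 7.39. In UBR4 the exon 66 region (chr1:19122783-19123113) reached 2.85, 3.31 and 3.41, the exon 68 region 2.03, 2.26 and 2.57, and the region in its last exon, 106, 2.36, 2.66 and 3.99. None of these 7 regions passed a fold enrichment of 4 in every list, and their values overlapped between the 2 genes.

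Among the other genes, some long internal coding exons were marked by every list. TRIP12 exon 4, 803 bp of coding sequence near the 5′ end, was the only exon of that gene with a summit in every list, with fold enrichments of 1.93, 1.94 and 2.44 in replicates 1, 2 and 3. BIRC6 exon 55, of 781 bp, reached 2.10, 2.15 and 3.26, and its exon 25 2.64, 2.30 and 2.25. HERC1 exon 38, of 776 bp, reached 2.31, 2.79 and 3.30. In HECTD4, by contrast, exon 61, wholly coding and 1307 bp long with a GC content of 64.96%, had no summit in any list. The HECTD4 exon marked internally by every list was exon 64, of 152 bp, at 3.97, 2.48 and 5.22. Its replicate 2 pair of fold and −log10 q also occurred at HUWE1 exon 45. Without peaks whose fold and p-value recur together in at least 10 peaks of their list, HECTD4 had 0 regions found in every list.

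HERC2 had the region with the highest mean fold enrichment of the 76. It covered exon 18 and part of the intron beside it (chr15:28255820-28256355), with fold enrichments of 4.15, 4.17 and 5.98, a mean of 4.77 ± 1.05 (SD, n = 3). The same pairs of fold and −log10 q occurred at a peak of UBR4 in replicate 1, MYCBP2 in replicate 2 and HERC1 in replicate 3. The highest mean fold therefore rests on values that are not particular to that region. The other shared regions of HERC2 lay in exons 22, 92 and 93. HERC2 is known to have partial copies in the genome, so reads of its exons could have been split between them by the authors' alignment, and its values are uncertain for that reason. Of 14 records of HERC2 copies in the annotation, 7 held a summit in at least 1 list. The copies held 7, 3 and 6 distinct summits in replicates 1, 2 and 3, against 26, 13 and 42 in HERC2.

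The last exon held a summit in every list in 6 of the 8 genes, the exceptions being MYCBP2 and TRIP12, where replicate 2 had none. Fold enrichments of its shared region were 3.11, 3.32 and 2.70 in HERC1, 2.90, 2.64 and 2.42 in HERC2, 2.43, 4.17 and 4.08 in HECTD4 and 2.03, 1.97 and 1.97 in BIRC6. In TRIP12, whose last exon has 3914 bp and is mostly 3′ UTR, it held 5, 0 and 3 summits. The first exon was marked by every list in MYCBP2 alone, at 3.96, 2.27 and 3.67, and by no list in 6 genes. Summits in coding sequence numbered 161, 82 and 268 over the 8 genes, those in 3′ UTRs 14, 8 and 12, and those in 5′ UTRs 0, 0 and 2. Coding sequence makes up 89.8% of the exonic bases of these genes, so coding summits were the majority in each list, as coding bases are of the exons.

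Longer exons were marked more often in all lists, while summits per kb did not keep climbing with length. Of exons under 100 bp, 0.0%, 1.14% and 15.9% held a summit in replicates 1, 2 and 3. The shares were 16.4%, 7.08% and 34.1% from 100 bp to under 150 bp, and 28.9%, 14.4% and 48.7% from 150 bp to under 200 bp. They were 44.2%, 23.1% and 61.5% from 200 bp to under 300 bp, and 80.6%, 54.8% and 80.6% for 300 bp or more. Each list thus followed the same order of classes. Per kb of exon, summits averaged 0.696 ± 1.09, 1.54 ± 1.098, 1.77 ± 0.992, 1.87 ± 0.840 and 1.22 ± 0.333 from the shortest to the longest class (SD, n = 3), and these values overlapped. The 4 exons of 300 bp or more without any summit were BIRC6 exon 1 and HECTD4 exons 1, 2 and 61, with GC contents of 71.6%, 75.8%, 52.5% and 64.96%.

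**Figure D3:**
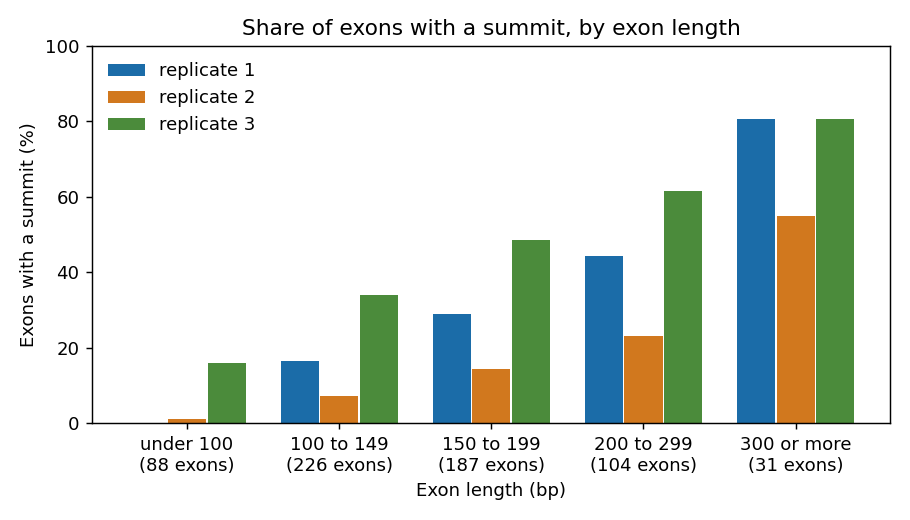
Percentage of the 636 exons of the 8 genes that hold a summit (y axis), by exon length class (x axis, bp, with the number of exons) and list. In each list the share is lowest under 100 bp, at 0.0%, 1.14% and 15.9%, and highest at 300 bp or more, at 80.6%, 54.8% and 80.6%.

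The intervals followed the exons closely. Exons with any peak held 1.06 ± 0.0199 summits each (SD, n = 3), so a gene's exonic count was close to its number of marked exons. Of the 547 exonic summits over the lists, 190 belonged to an interval that covered the whole exon, 245 to one that crossed 1 edge of it and 112 to one inside it. In replicate 3, 46 of the 58 exonic HUWE1 intervals and 46 of the 75 of UBR4 covered their exon. The intervals covered 52.8%, 54.1% and 84.5% of the HUWE1 transcript and 53.5%, 28.4% and 78.4% of that of UBR4. For the other genes the share covered was at most 42.0%, in BIRC6 in replicate 3. Over all 8 genes, 71.8% ± 6.93 of the bases under an interval were exonic (SD, n = 3), where exons make up 7.11% of the gene bodies.

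Most of the summits that fell in introns sat at the edge of an exon. The intronic share of the members' peaks was 18.6%, 25.6% and 12.96% in replicates 1, 2 and 3, and averaged 19.06% ± 6.34 (SD, n = 3). In 79 of these 113 peaks the interval also touched an exon, with the summit a median of 12 bp away from it and within 50 bp in 78 of them. The remaining 34 intervals lay wholly in introns, at 243 to 6676 bp from the nearest exon, and made up 2.79%, 12.4% and 4.01% of the members' peaks. Replicate 2 thus had the largest share of peaks deep in introns, 15 of 121.

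**Figure D4:**
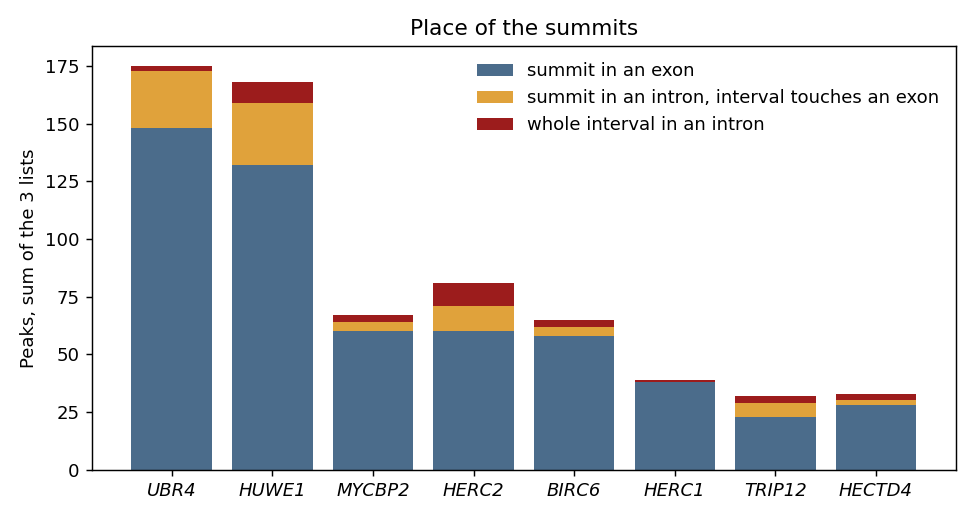
Peaks of each gene summed over the 3 lists (y axis), split by whether the summit lay in an exon, in an intron within an interval that touches an exon, or in an interval wholly inside an intron. UBR4 has 148 exonic, 25 exon-edge and 2 wholly intronic peaks, and HUWE1 132, 27 and 9.

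HERC2 had 10 of the 34 wholly intronic intervals, HUWE1 9, and the others 1 to 3 each. A HUWE1 interval in the intron sequence at chrX:53542935-53543307 was the only one found in every list, with fold enrichments of 2.54, 3.59 and 2.16 and summits within 25 bp. In HECTD4 an intronic region (chr12:112267174-112267290) was found in replicates 1 and 3 with summits 2 bp apart, −log10 q of 18.01 and 18.8, and lay in RN7SKP71, annotated there as a gene record of its own. RN7SKP71 is named as a pseudogene, whose reads could be shared with near-identical copies, so the region is uncertain. None of the microRNA hairpins annotated inside these genes, MIR98 and MIRLET7F2 in HUWE1, MIR6861 in HECTD4 and MIR558 in BIRC6, was overlapped by an interval in any list. The nearest interval to any of them lay 58 bp from MIRLET7F2, in replicate 3.

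Other gene records overlap some of these summits, and the strand of the RNA is not known. In MYCBP2, 11, 5 and 24 of the 18, 8 and 41 summits also lay in the antisense gene MYCBP2-AS1. In HERC1, 2, 0 and 3 summits lay in a second record, in UBR4 1 in each list, in HECTD4 1, 0 and 1, and in HERC2 0, 0 and 2. HUWE1, BIRC6 and TRIP12 had none. For MYCBP2 most peaks therefore cannot be given to one strand.

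GC content and mean position at the summits were not used to choose the genes, and each was tested across the 3 lists. The rule for this set does name the spread of peaks over exons, so position is not wholly independent of it. Within 50 bases on each side of an exonic summit the GC content averaged 49.9% ± 1.02, against 48.3% ± 0.494 for equal genomic windows centred on every exonic base of the same genes, weighted by each gene's summits (SD, n = 3). The difference was 1.53, 2.26 and 1.19 percentage points in replicates 1, 2 and 3, with summits higher in each of the 3. A two-sided permutation test that flips the sign of each list's value, enumerated exactly, gave p = 0.25, and 0.25 after Benjamini-Hochberg adjustment over both tests. That is the smallest p that 3 lists can give, so the test cannot pass 0.05. Exons with a summit in any list had a median of 172.5 bp, against 132.5 bp for those without. The windows were not matched for exon length or distance to the exon edge, and the effect of either on the GC difference was not tested. GC was higher at summits in every list for HUWE1, UBR4, HERC1, MYCBP2, BIRC6 and TRIP12, by a mean of 1.14 points in UBR4 to 4.78 in TRIP12, whose replicate 2 value rests on 2 summits. HERC2 was higher in 2 of 3 lists. In HECTD4 it was lower in all 3, by 6.90, 2.77 and 4.72 points.

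Along the spliced transcripts, scaled from 0 at the 5′ end to 1 at the 3′ end, exonic summits averaged 0.556, 0.601 and 0.503 in replicates 1, 2 and 3. The mean departure from 0.5 was 0.0532 ± 0.0493 (SD, n = 3), toward the 3′ end in each of the 3. The same exact permutation test gave p = 0.25, again the smallest possible, and 0.25 after adjustment. BIRC6 leaned most to the 3′ side, with mean positions of 0.670, 0.777 and 0.637. TRIP12 had no such lean in every list, at 0.609, 0.0370 and 0.363, with 2 exonic summits in replicate 2. HUWE1 and UBR4 were near the middle in replicate 3, at 0.492 and 0.480, and further 3′ in replicate 2, at 0.583 and 0.576.

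Among the 223 genes with at least 8 kb of coding sequence, HUWE1 ranked second by regions found in every list, and UBR4 came next. LRP1, with 34 such regions, came first and DYNC1H1 tied with UBR4 at 26, both named after their values were seen. The other 108 such genes with a peak in every list had a median of 2 shared regions and 0.828 exonic peaks per kb. The 7 members of that length had medians of 4 and 1.302. Apart from HUWE1 and UBR4 they had 2 to 4 shared regions, below the 6 at the upper quartile of the 108. The intronic share was 18.6%, 25.6% and 12.96% in the 8 genes, against 17.2%, 29.9% and 17.5% in those 108. Intervals that touched an exon made up 85.0%, 51.6% and 69.0% of the intronic peaks in the 8 genes, against 63.4%, 23.1% and 62.7% in the 108. These are descriptions of chosen genes, and no difference was tested.

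**Figure D5:**
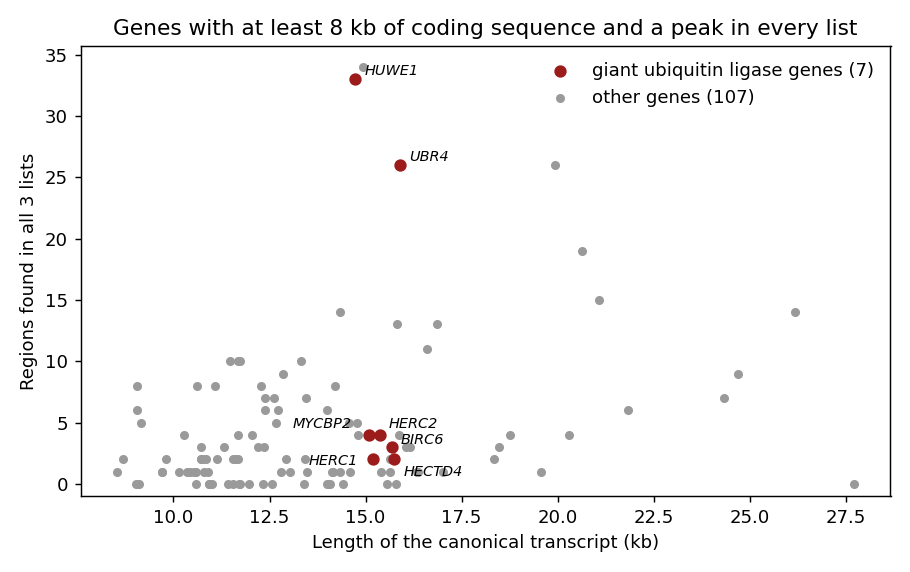
Regions found in all 3 lists (y axis) against the length of the canonical transcript (x axis, kb), for genes with at least 8 kb of coding sequence and a peak in every list. HUWE1 (33) and UBR4 (26) lie high among the 107 other genes, the remaining 5 ligases have 2 to 4, and the giant titin gene TTN, with 4 regions on 109.2 kb, is not drawn.

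By regions found in every list per exonic kb, the long genes nearest to the members' median of 0.229 were GCN1 at 0.230, VCAN at 0.243, AHNAK at 0.213, MGA at 0.246 and FRAS1 at 0.252. The values of HUWE1 and UBR4 were 2.24 and 1.64, and those of the other members 0.127 to 0.265. Among protein-coding genes of any length, HUWE1 ranked 84 and UBR4 209 on this measure. By exonic peaks per kb they ranked 53 and 42. Outside the members, 5147 protein-coding genes of any length were marked by each list, and their median was 0.285 shared regions per kb. The members' median and the values of all members but HUWE1 and UBR4 lay below that.

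The remaining genes of the ubiquitin pathway were described from 4 lists. Of 24 other HECT ligases, 14 had a peak in every list and 9 had a shared region, where 25.7% and 18.8% of all protein-coding genes did. NEDD4, a ligase of membrane receptors and channels, had 8, 8 and 21 peaks and 4 shared regions, and its paralogue NEDD4L had 15, 9 and 15 peaks and 3 shared regions. AREL1 had 6, 3 and 17 peaks and 2 shared regions. Of 11 N-degron and other very large ligases, 3 (27.3%) had a peak in every list, close to the 25.7% of all protein-coding genes, and 2 had a shared region. RNF213, the giant RING ligase known from moyamoya disease, had 33, 22 and 43 peaks and 15 shared regions. UBE2O had 2 shared regions and KCMF1, a partner of UBR4, had 4, 2 and 1 peaks and 0 shared regions. The classical N-degron ligases UBR1, UBR2 and UBR3, which share the UBR box with UBR4, had 0 shared regions each and no peak in at least 1 list.

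Of 18 partners and substrates of the members, 7 (38.9%) had a peak in every list and 6 a shared region, where 25.7% and 18.8% of all protein-coding genes did. MYC and RNF168, which encode substrates of these ligases, had 2 shared regions each. The deubiquitinase gene USP7 and FBXO45, the F-box partner of MYCBP2, missed at least 1 list. Of 18 activating and conjugating enzymes, 9 (50.0%) had a peak in every list and 6 a shared region, beside the same 25.7% and 18.8%. UBE2R2 had 4 shared regions, UBA1, the main ubiquitin-activating enzyme, 3, UBE2L3, which serves HECT ligases, 2, and UBE2C, the partner of the anaphase-promoting complex, 1.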

How the data were processed

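RNA that came down with DDX5 from RH30 nuclei was sequenced, and 1 peak list per immunoprecipitate was used. The submitters' processing notes name the build GRCh38 and the tools MACS2 2.2.7.1, STAR 2.6.1d, SAMtools 1.10, cutadapt 1.11, FastQC 0.11.8 and bcl2fastq 2.20. Parameters and the control of the peak calls are not given in the sources used here. The deposited fold enrichment of a peak is a ratio over the peak caller's background. Each deposited p-value and q-value is given as −log10. The score deposited with a peak was not used. These values are the authors' own, and were used only inside the list they came from.

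Peaks on the main chromosomes were kept, and 0 of them ended past the reference chromosome. Each interval counted once, at its summit with the highest −log10 q. Exons were those of the Ensembl canonical transcript in GENCODE version 44. Intervals sharing at least 1 bp were merged into regions. GC content was taken within 50 bases on each side of a summit. The GC and position differences were tested over 3 lists by an exact two-sided permutation of signs. The text names the 8 members, their regions ranked by mean percentile of −log10 q, up to 4 genes of each pathway list by shared regions, and the 5 long genes nearest in shared regions per kb. Some items that this rule names are not reported here. UBR1, UBR2, UBR3, USP7, FBXO45, LRP1, DYNC1H1, TTN and exons singled out were named outside that rule, after their values were seen. Members and lists were chosen with earlier results of these data known. The computations were tested on simulated data with Python 3.11.15, pandas 2.3.3, NumPy 2.4.6 and pysam 0.24.0.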

Additional observations from a re-analysis of the deposited data

How the results depend on the processing

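No paired analysis was possible because no INPUT list was analysed, so the shared replicate numbers pair nothing. With q under 1e-05 the members' peaks averaged 120.0 per list and their regions found in every list numbered 25. With fold enrichments of at least 4, 4 members had a peak in every list, peaks averaged 24.3, exonic peaks per kb 0.158, the intronic share 29.4%, exons with a summit 2.94%, and 1 region was found in every list. Leaving out peaks whose fold and p-value recur together in at least 10 peaks, peaks averaged 83.7, exonic peaks per kb 0.640, the intronic share 10.5%, exons with a summit 11.1%, and 31 regions were found in every list. Of these regions HUWE1 held 16, UBR4 8, BIRC6 and TRIP12 2 each, HERC1, HERC2 and MYCBP2 1 each, and HECTD4 0. With 1 list left out, shared regions ranged from 83 to 175, the highest without replicate 2. The cause of these changes was not tested. The mean GC and position differences stayed above 0 under every alternative that gave them, but not in each list. The exact permutation p of the position difference was 0.75 with exons of all transcripts (0.0126 ± 0.0515), and 0.5 with q under 1e-05, equal list lengths or summits in no other gene record. That of the GC difference was 0.5 at fold enrichments of at least 4. Above 0.25, at least 1 of the 3 lists went the other way. Depth is unknown, and list lengths differ, which limits comparisons between lists.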
